A study of Mus musculus with 9 samples.

Results

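The genes of the NMDA receptor were read in the prelimbic cortex of mice after nerve injury and after treatment with a ketamine metabolite. The family has 7 members, Grin1, Grin2a, Grin2b, Grin2c, Grin2d, Grin3a and Grin3b, taken by symbol from the 55335 lines of the deposited count table. Each had 1 line, and 7 of 7 passed the filter on low counts. RNA came from 9 mice in 3 groups of 3, collected on day 14 after surgery. Sham mice had a sham operation and were given saline. Injured saline mice had spared nerve injury (SNI), a model of neuropathic pain in which some branches of the sciatic nerve are cut, and were given saline. R-HNK mice had the same injury and were given R-HNK at 10 mg/kg. The series title names this compound as (2R,6R)-hydroxynorketamine, which is a metabolite of ketamine. The sources used here give no strain, sex, age, route or time of dosing. The tissue is bulk cortex, so fewer cells of a type and less RNA per cell cannot be told apart.

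NMDA receptors are glutamate-gated channels that pass calcium when glutamate and a co-agonist, glycine or D-serine, bind while the membrane is depolarised. Grin1 encodes GluN1, the obligatory subunit that binds the co-agonist. Grin2a to Grin2d encode the glutamate-binding GluN2 subunits, which set the kinetics and the signalling partners of the channel. GluN2B prevails early in forebrain development and GluN2A increases with maturation, so the relation of Grin2a to Grin2b is a common readout of receptor make-up. Grin3a and Grin3b encode GluN3 subunits, which bind glycine and lower calcium permeability. Ketamine blocks the channel of these receptors.

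Because the members descend from one ancestral gene, sequences of a GluN1, a GluN2 and a GluN3 gene were set side by side to show how far reads from one could be taken for another. The 60-base coding stretch that was most alike across the 7 genes encodes part of the third membrane helix, which forms the gate of the channel. It is shown 5′ to 3′ on the coding strand, from GENCODE M21 transcripts, with capitals at bases that differ from Grin1.
Grin1: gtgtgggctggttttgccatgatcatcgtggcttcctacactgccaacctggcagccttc
Grin2a: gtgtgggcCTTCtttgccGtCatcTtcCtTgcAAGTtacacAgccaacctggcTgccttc
Grin3b: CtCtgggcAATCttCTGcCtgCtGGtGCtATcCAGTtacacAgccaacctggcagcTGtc
On GRCm38 (mm10) the stretch lies in 1 exon of each gene, at chr2:25297199-25297258 in Grin1 and chr16:9653447-9653506 in Grin2a, both on the minus strand, and at chr10:79974603-79974662 on the plus strand in Grin3b. Grin2a shared 75% of these bases with Grin1, and Grin3b 60%.

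Even in coding sequence the members were distinct at the length of a sequencing read. Grin2a and Grin2b, whose ratio is described further on, had 67.7% identical bases over their aligned coding sequences. No 50-base word of a member occurred in another member's transcripts. Of the 17972 such words of Grin2a, 2079 also occurred elsewhere, nearly all in its processed pseudogene Gm7328. That pseudogene has a line of its own in the table, with 340 to 580 counts per library, or 2.83% to 4.77% of the Grin2a count. The other members had at least 99.97% of their words to themselves on the same strand.

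Libraries held 53624337 to 73586375 counts. Levels are CPM, the count scaled to library size, after TMM scaling, given as mean ± SD with n = 3 mice unless stated. Differences between groups are log2 fold changes with a standard error (SE) from edgeR's quasi-likelihood test. Passing means an adjusted p under 0.05, by Benjamini and Hochberg, over 21765 genes. The libraries also differed in RNA of striatal medium spiny neurons, which lie below the cortex. The summed level of 15 striatal markers reached 991 to 2090 CPM in 4 libraries (replicates 2 and 3 of the sham group, 1 and 3 of the R-HNK group) against 405 to 478 CPM in the other 5. Drd2, the dopamine receptor that defines one class of these neurons, measured 17.5 to 44.0 CPM in the 4 raised libraries and 1.23 to 1.72 CPM in the others. No injured saline library was among the 4. Fits without them hold 1 sham and 1 R-HNK library, and their values are given where a member's fold change moved by much.

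The 7 genes spanned a wide range of level in this tissue. Per kilobase of annotated exon and over all 9 libraries, Grin1 was highest at 70.2 ± 4.90 CPM per kb (SD, n = 9). Grin2b followed at 24.9 ± 2.69 CPM per kb. Grin2c, known from astrocytes and cerebellar granule cells, measured 12.5 ± 1.40 CPM per kb and Grin2a 11.1 ± 1.43 CPM per kb. These neighbours overlapped, from 10.9 to 14.5 for Grin2c and from 9.03 to 13.2 for Grin2a. Grin2d, a subunit gene of interneurons, had 4.10 ± 0.534 and Grin3a 3.86 ± 0.612 CPM per kb, and these overlapped as well. Grin3b, best known from motor neurons, was far below the rest at 0.0942 ± 0.0670 CPM per kb. The exon lengths used run from 3.296 kb for Grin3b to 24.842 kb for Grin2b. They count every annotated exon, so a gene whose long form is little used appears lower than it is.

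**Figure D1:**
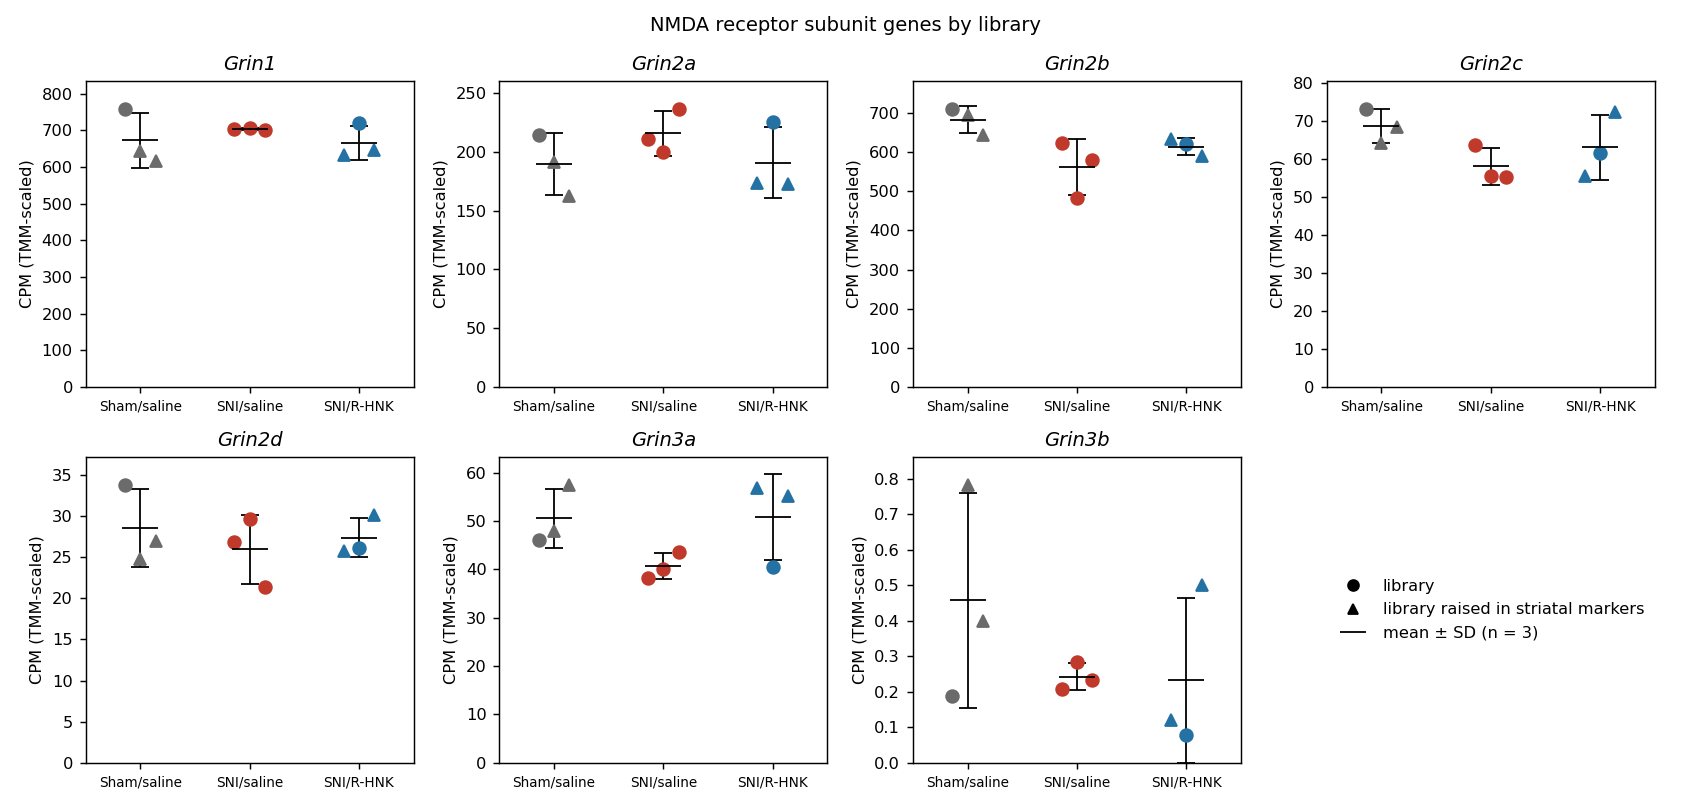
Level of each NMDA receptor subunit gene (TMM-scaled CPM, vertical axes from 0) in sham (grey), injured saline (red) and R-HNK (blue) mice; points are libraries, triangles are libraries raised in striatal markers, bars are mean ± SD (n = 3). Grin2b, Grin2c and Grin3a sit lower in all 3 injured saline libraries than in any sham library.

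The first comparison asks what nerve injury did to these genes in saline-treated mice. No member passed in edgeR, against 1.07% of all genes, and 3 of 7 had an unadjusted p under 0.05, against 16.6% of all genes. Grin2b, Grin2c and Grin3a were lower in every injured saline library than in every sham library, 3 of 7 members where 10.9% of all genes tested did so and 21.7% separated the groups in either direction. None of the 7 was higher without overlap. The median log2 fold change of the 7 was -0.24, beside -0.02 over all genes.

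The 3 sham libraries, in replicate order here and in what follows, had Grin1 at 759, 644 and 617 CPM. The injured saline libraries had it at 703, 708 and 702 CPM. The injured saline libraries lay close together within the wide sham range. The log2 fold change was 0.07 ± 0.08 (SE, adjusted p = 0.743 in edgeR), and its 95% interval ran from -0.11 to 0.24. With the striatal marker score as a covariate it was -0.11. Of its exon bases, 13.5% overlap Grin1os, an antisense gene at 8.58 to 19.1 CPM. The sources used here do not say whether counting used strand, so reads of such a pair cannot be told apart.

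Grin2a measured 215, 192 and 162 CPM in sham mice and 211, 199 and 236 CPM in injured saline mice. The groups overlapped, since sham replicate 1 lay above 2 of the injured saline libraries. The log2 fold change was 0.19 ± 0.12 (adjusted p = 0.484 in edgeR, 95% interval -0.08 to 0.46). Adjusted for the striatal marker score it was -0.054, and with the 4 raised libraries left out 0.013.

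Grin2b gave the smallest p of the family. It measured 711, 695 and 644 CPM in sham mice and 623, 484 and 580 CPM in injured saline mice, so every injured saline library was below every sham library. Group means were 683 ± 35.1 and 562 ± 71.0 CPM, a log2 fold change of -0.28 ± 0.09. The 95% interval was -0.47 to -0.09, the unadjusted p 0.00649 and the adjusted p 0.133 in edgeR. Grin2b passed with DESeq2 (adjusted p = 0.0444), which called 5.44% of all genes, and with limma-voom with quality weights (adjusted p = 0.0357), which called 5.21%. The fold change was between -0.34 and -0.18 in all 19 other settings tried, with adjusted p from 0.0357 to 0.522. Markers of immature neurons and neuroblasts, in which Grin2b and Grin3a are also expressed, moved the same way. Their summed level, 8 genes, ran from 140 to 174 CPM in sham libraries, from 75.7 to 80.9 CPM after injury with saline and from 119 to 150 CPM in R-HNK libraries. In edgeR 6 of the 7 tested passed as lower after injury. Their defining marker Dcx was 62.4 to 67.3 CPM in the sham libraries and 36.5 to 41.3 CPM in the injured saline libraries. The 8th, Dlx6os1, had 0 to 2 counts in every library and was not tested. Other marker lists also held genes that passed as lower in edgeR, among them 4 of 13 for inhibitory interneurons and 3 of 8 for meningeal and perivascular fibroblasts. The interneuron list was mixed, though 0 of its genes passed as higher. Its summed level overlapped, at 1513 to 1693 CPM in sham and 1481 to 1519 CPM in injured saline libraries. Pvalb (16.0 to 29.4 against 35.5 to 42.4 CPM) and Cck (259 to 383 against 434 to 480 CPM) were higher in every injured saline library. By contrast, 2 of 9 deep layer and 1 of 10 excitatory neuron markers passed as higher, and 0 of either list as lower. The deep layer list was mixed too, with a median log2 fold change of 0.09. After injury with saline, mean Syt6 was 38.1 against 52.5 CPM, Bcl11b 109 against 149 and Foxp2 19.0 against 23.0. Syt6 was lower without overlap, though by a narrow gap, and the remaining deep layer markers had higher means. The part of any of these cell types in the Grin2b difference was not tested.

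Grin2c measured 73.1, 64.2 and 68.3 CPM in sham mice and 63.7, 55.4 and 55.1 CPM in injured saline mice. The groups did not overlap, though sham replicate 2 and injured saline replicate 1 nearly met. The log2 fold change was -0.24 ± 0.10 (adjusted p = 0.248 in edgeR, 95% interval -0.45 to -0.03). Over the 19 other settings tried, the striatal settings among them, it lay between -0.33 and -0.18. Summed astrocyte markers, 11 genes, were also lower: sham libraries ran from 3965 to 4429 CPM, injured saline libraries from 3701 to 3926 CPM. R-HNK libraries ran from 3734 to 4179 CPM and overlapped both. Slc1a2 was the largest term of the sum, and its ranges overlapped: 2335 to 2572 CPM (sham), 2238 to 2417 CPM (injured saline). In edgeR 1 of the 11 passed as lower after injury and 0 as higher, with a median log2 fold change of -0.33. Mean Gjb6 and Aldoc levels were higher after injury with saline, at 34.7 against 30.3 CPM and 570 against 568 CPM. The part of astrocytes in the Grin2c difference was not tested.

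Grin2d measured 33.8, 24.8 and 26.9 CPM in sham mice and 26.9, 29.7 and 21.4 CPM in injured saline mice, with overlapping groups. Its log2 fold change was -0.13 ± 0.14 (adjusted p = 0.671 in edgeR), and 0.017 without sham replicate 1. It moved the other way to -0.28 once adjusted for the striatal score and to -0.38 (adjusted p = 0.623 in edgeR) with the 4 raised libraries left out. The antisense gene Gm45441 overlaps 9.66% of its exon bases.

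Grin3a measured 46.1, 48.0 and 57.5 CPM in sham mice and 38.3, 40.1 and 43.7 CPM in injured saline mice. Every injured saline library was below every sham library. The log2 fold change was -0.31 ± 0.12 (adjusted p = 0.232 in edgeR, 95% interval -0.58 to -0.04), and -0.064 once adjusted for the striatal score or -0.17 with the 4 raised libraries left out. Grin3b had 11 to 45 counts in sham libraries and 12 to 17 in injured saline libraries, and a log2 fold change of -0.91 ± 0.76 (adjusted p = 0.592 in edgeR). Its 95% interval ran from -2.55 to 0.72, which spans both a fall and a rise, so no change was detectable at these counts. The sign turned to 0.74 with the striatal score as a covariate. Of its exon bases, 32.1% overlap the opposite-strand gene Tmem259.

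**Figure D2:**
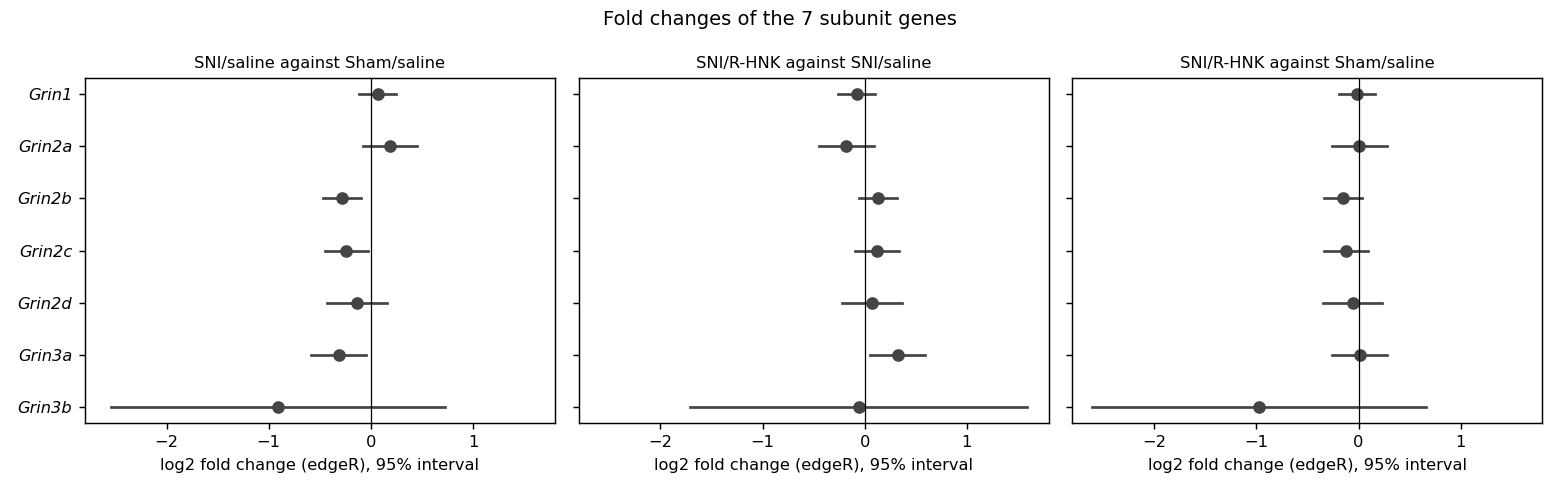
edgeR log2 fold change (points) with 95% interval (lines) of the 7 subunit genes in the 3 comparisons. Intervals of Grin2b, Grin2c and Grin3a lie below 0 for injured saline against sham mice without an adjusted p under 0.05, and that of Grin3b spans several log2 units in each panel.

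The second comparison asks what R-HNK did in injured mice. It shares the injured saline libraries with the first, so values are given side by side and opposite signs in the 2 comparisons are no separate evidence. No member passed in edgeR, DESeq2 or limma-voom, where 0.119% of all genes passed in edgeR, 0.643% in DESeq2 and 0.225% in limma-voom. Grin3a was the 1 member with an unadjusted p under 0.05, against 7.47% of all genes. No member separated the groups without overlap, against 13.7% of all genes in either direction and 6.59% lower.

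Grin3a measured 56.8, 40.6 and 55.2 CPM in R-HNK replicates 1, 2 and 3. R-HNK replicates 1 and 3 were above all injured saline libraries, and R-HNK replicate 2 fell among them. The log2 fold change against injured saline mice was 0.32 ± 0.12 (adjusted p = 0.613 in edgeR, 95% interval 0.05 to 0.59). Without the 4 striatally raised libraries it was -0.0080, with R-HNK replicate 2 the lone treated library. Grin2b measured 633, 620 and 589 CPM in R-HNK mice, between the sham and the injured saline means. Its fold change against injured saline mice was 0.13 ± 0.09 (adjusted p = 0.756 in edgeR, 95% interval -0.06 to 0.31).

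Grin2a measured 173, 226 and 173 CPM in R-HNK mice. R-HNK replicate 2 was within the injured saline range, and the other two R-HNK libraries lay below all 3 injured saline libraries. The log2 fold change was -0.18 ± 0.12 (adjusted p = 0.758 in edgeR, 95% interval -0.45 to 0.09), and 0.060 without the 4 libraries. Grin1 had 632, 719 and 648 CPM, with the same library highest, and a fold change of -0.08 ± 0.08. Grin2c at 55.4, 61.4 and 72.2 CPM and Grin2d at 25.8, 26.2 and 30.1 CPM differed from injured saline mice by 0.12 ± 0.10 and 0.08 ± 0.14. For Grin2d this was 0.19 once adjusted for the striatal score and 0.0065 without the 4 libraries, and for Grin2c 0.14 and 0.077. Grin3b had 5 to 32 counts per R-HNK library and a fold change of -0.06 ± 0.76, which was -1.34 and -1.62 in those settings.

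The third comparison sets R-HNK mice against sham mice and shares its libraries with the other two. No member passed in edgeR (0 of 7, and 0 at an unadjusted p under 0.05), DESeq2 or limma-voom. Over all genes, 0.00459% passed in edgeR, 0.0459% in DESeq2 and 0% in limma-voom, and 3.53% had an unadjusted p under 0.05. Grin2b was the 1 member whose groups did not overlap, with every R-HNK library below every sham library, where 4.42% of all genes were lower in this way and 8.85% separated in either direction. Its log2 fold change was -0.15 ± 0.09 (unadjusted p = 0.0988 in edgeR, 95% interval -0.34 to 0.03). Grin1, Grin2a and Grin3a differed by -0.01 ± 0.08, 0.01 ± 0.12 and 0.01 ± 0.12. Grin2c and Grin2d differed by -0.12 ± 0.10 and -0.06 ± 0.14, and Grin3b by -0.97 ± 0.75. With the 4 raised libraries left out, which sets 1 R-HNK against 1 sham library, Grin2d was at -0.37, Grin2c at -0.25, Grin2b at -0.20, Grin3a at -0.18, Grin1 at -0.075, Grin2a at 0.073 and Grin3b at -1.26, with no adjusted p under 0.05 in edgeR.

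The Grin2a to Grin2b ratio was taken from the counts of the same library, so that the scaling between libraries cancels. It was 0.302, 0.276 and 0.252 in sham mice, 0.339, 0.412 and 0.408 in injured saline mice, and 0.274, 0.364 and 0.294 in R-HNK mice. Every injured saline library lay above every sham library, while R-HNK replicate 2 lay within the injured saline range and R-HNK replicates 1 and 3 within the sham range. Group means were 0.276 ± 0.0252, 0.386 ± 0.0408 and 0.310 ± 0.0474 (SD, n = 3). These are ratios of counts and not of molecules, since Grin2b has the longer exon sequence.

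The ratio was 1.40-fold higher in injured saline than in sham mice, a log2 difference of 0.48 ± 0.12 (SE, two-sided exact permutation p = 0.1, adjusted p = 0.3 over 3 comparisons). With 3 against 3 libraries 0.1 is the smallest p that this test can give. In R-HNK mice the ratio was 0.801 times that of injured saline mice, a log2 difference of -0.32 ± 0.15 (exact permutation p = 0.2, adjusted p = 0.3). Against sham mice the difference was 0.16 ± 0.14 (exact permutation p = 0.5, adjusted p = 0.5). Each difference kept its sign in the 12 other settings tried. For injured saline against sham the libraries did not overlap, so leaving out 1 library could not turn the sign there. Adjusting for the striatal score gave 0.28 for injured saline against sham, and leaving out the 4 raised libraries gave 0.35. For R-HNK against injured saline these settings gave -0.18 and -0.081, and for R-HNK against sham 0.098 and 0.27. Adding the pseudogene counts to Grin2a gave 0.46 for injured saline against sham.

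**Figure D3:**
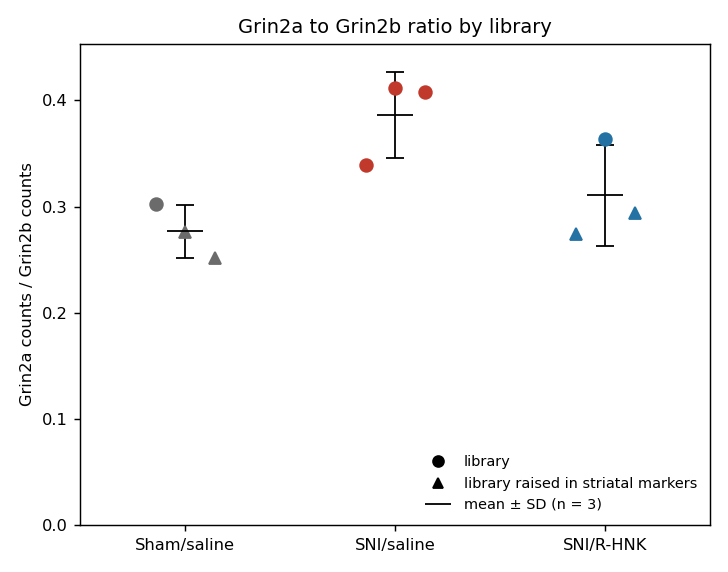
Grin2a counts divided by Grin2b counts (vertical axis from 0) in each library, by group; triangles are libraries raised in striatal markers, bars are mean ± SD (n = 3). Injured saline libraries, at 0.339 to 0.412, lie above all sham libraries, at 0.252 to 0.302.

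Set against exon length, the 4 GluN2 genes can be read as shares of their summed CPM per kb. Grin2b held the largest share in every library and Grin2d the smallest. The Grin2a share was 19.9%, 19.4% and 17.2% in sham mice, 22.0%, 24.1% and 26.0% in injured saline mice, and 19.3%, 23.4% and 18.5% in R-HNK mice. The sham and injured saline shares did not overlap. The Grin2b share averaged 49.2% ± 1.61 in sham, 45.1% ± 2.42 in injured saline and 47.6% ± 2.92 in R-HNK mice. The Grin2c and Grin2d shares differed little between groups, at 23.0% to 24.3% and 7.63% to 7.92% on average. Grin1 per kb stood at 1.20 to 1.30 times the GluN2 sum in sham, 1.35 to 1.58 in injured saline and 1.28 to 1.38 in R-HNK mice.

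**Figure D4:**
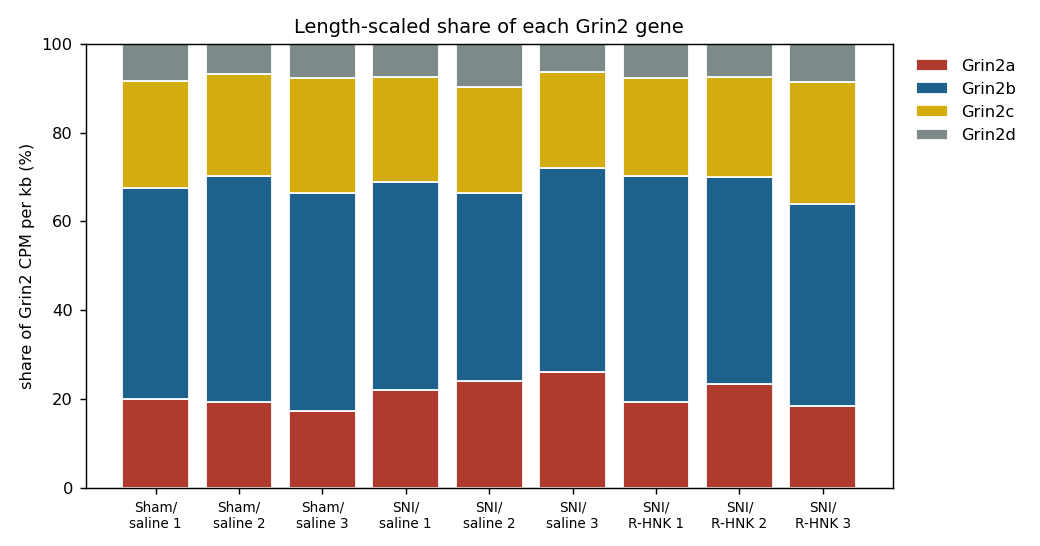
Share of each GluN2 gene in the summed Grin2 level (CPM per kb of exon, %), 1 stacked bar per library. The Grin2a share is 22.0% to 26.0% in injured saline mice and 17.2% to 19.9% in sham mice.

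Some members separated the 4 libraries raised in striatal markers from the other 5. Between them, Grin1 (617 to 648 against 702 to 759 CPM) and Grin2a (162 to 192 against 199 to 236 CPM) were lower without overlap. Grin3a was higher without overlap, at 48.0 to 57.5 against 38.3 to 46.1 CPM. That is 3 of 7 members, where 9.38% of all genes did not overlap between these libraries. The ratio of Grin2a to Grin2b was 0.252 to 0.294 in the raised libraries and 0.302 to 0.412 in the others. Grin2b, Grin2c, Grin2d and Grin3b overlapped. Other marker lists separated the same libraries. Summed oligodendrocyte markers were 5147 to 7163 CPM in the 4 libraries and 3416 to 4847 CPM in the others, and excitatory neuron markers 6286 to 7276 against 7749 to 8526 CPM. Camk2a, the largest term of the excitatory sum, overlapped, at 2841 to 3027 against 2802 to 3367 CPM. Markers of oligodendrocyte precursors (375 to 439 against 303 to 335 CPM), of endothelium (248 to 267 against 197 to 240 CPM) and of choroid plexus and ependyma (8.98 to 18.0 against 6.21 to 8.41 CPM) were also higher in the 4 without overlap. In the last list the choroid plexus markers Ttr and Folr1 were near 0. Their highest values, 0.417 and 0.326 CPM, were in injured saline libraries. The part of each of these tissues and cell types in the members' differences was not tested beyond the striatal settings above.

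**Figure D5:**
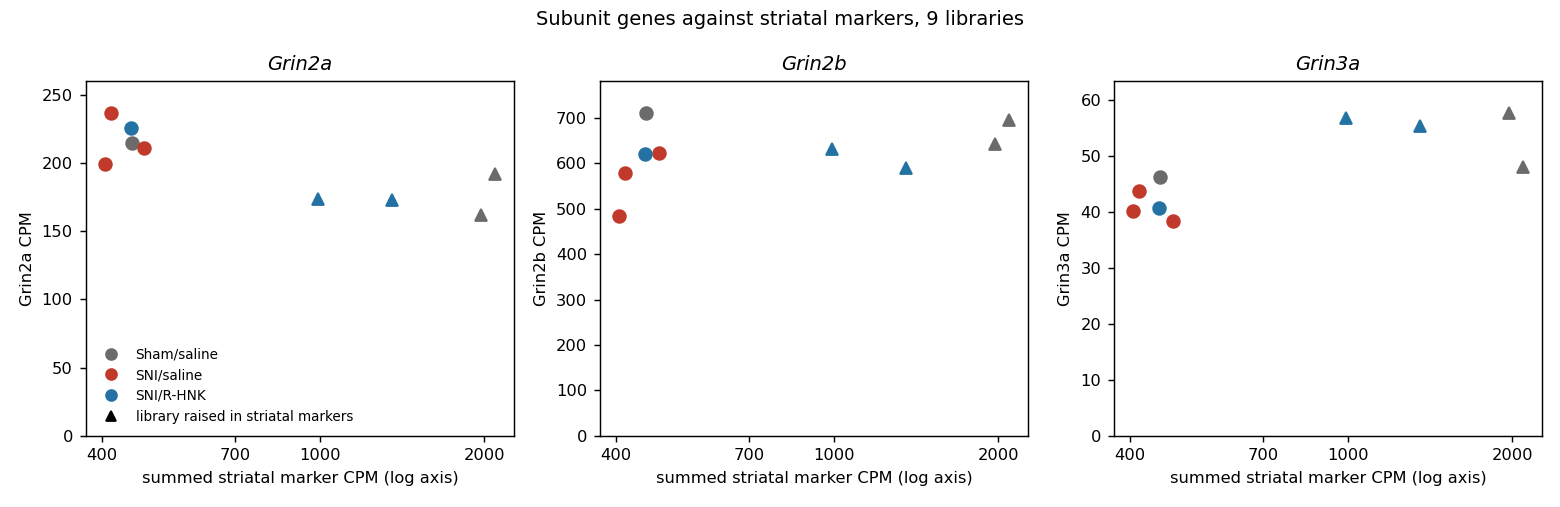
Level of Grin2a, Grin2b and Grin3a (CPM, vertical axes from 0) against the summed striatal marker level (CPM, log axis) in 9 libraries, coloured by group; triangles are the 4 raised libraries. Grin2a is lower and Grin3a higher in the 4 raised libraries, while Grin2b overlaps.

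Genes that work with the receptor were read from 7 lists. Of 123 tested, 0 rose and 2 fell in injured saline against sham mice in edgeR, or 1.63% beside 1.07% of all genes, and 46 had an unadjusted p under 0.05, where 16.6% of all genes did. DESeq2 called 9 higher and 16 lower, where it called 5.44% of all genes, and limma-voom 11 and 15, where it called 5.21%. In edgeR none passed once adjusted for the striatal score or with the 4 raised libraries left out. R-HNK against injured saline mice gave 0 in edgeR, DESeq2 and limma-voom and 14 at an unadjusted p under 0.05, where 7.47% of all genes had one. R-HNK against sham mice gave 0 in all of them and 9 at an unadjusted p under 0.05, where 3.53% of all genes had one.

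Reln encodes reelin, a secreted protein that enhances NMDA receptor activity through its receptors. Sham mice had 108, 106 and 95.2 CPM, injured saline mice 82.3, 65.1 and 71.0 CPM, and R-HNK mice 90.7, 77.2 and 83.9 CPM. All injured saline libraries were below all sham libraries, with a log2 fold change of -0.50 ± 0.09 (adjusted p = 0.0254 in edgeR). It passed in 6 of 9 fits that left out 1 library, and missed without sham replicate 2, injured saline replicate 2 or injured saline replicate 3. Its fold change was -0.50 (adjusted p = 0.124) once adjusted for the striatal score and -0.56 (adjusted p = 0.0999) with the 4 raised libraries left out, both in edgeR. Over all 19 other settings it lay between -0.58 and -0.43. Among the 17 genes of proteins that bind or modulate the receptor it was the 1 to pass in edgeR, while DESeq2 and limma-voom each called 2 higher and 3 lower.

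Tiam1 encodes a Rac activator that links NMDA receptors to spine growth. Sham mice had 92.1, 106 and 131 CPM, injured saline mice 76.0, 67.9 and 81.0 CPM, and R-HNK mice 109, 93.5 and 99.6 CPM. The injured saline libraries were below all others, with a log2 fold change of -0.55 ± 0.11 against sham mice (adjusted p = 0.0470 in edgeR). With 1 library left out it passed in 2 of 9 fits (sham replicate 1 or R-HNK replicate 2 removed), and its fold change was -0.32 (adjusted p = 0.444 in edgeR) once adjusted for the striatal score and -0.29 (adjusted p = 0.566) with the 4 raised libraries left out. Among the 17 calcium and Ras effectors it was the 1 to pass in edgeR, while DESeq2 called 2 lower and limma-voom 2 higher and 1 lower.

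In the other lists no gene passed in edgeR for injured saline against sham mice. They were 24 scaffold and trafficking genes, 27 kinases, phosphatases and anchors, 12 genes of co-agonist supply, 12 of glutamate supply and uptake, and 14 transcriptional regulators of Grin genes. Among co-agonist genes, the glycine transporter gene Slc6a9 averaged 45.7 ± 1.31 CPM in sham, 35.8 ± 3.65 in injured saline and 40.4 ± 0.473 in R-HNK mice (log2 fold change -0.35, adjusted p = 0.0579 in edgeR). Gldc and Gcsh, both of the glycine cleavage system, had log2 fold changes of -0.51 and 0.31 (adjusted p = 0.0737 and 0.0700 in edgeR). Of the glutamate transporter genes, astrocytic Slc1a3 had -0.33 (adjusted p = 0.0637) and vesicular Slc17a7 had 0.31 (adjusted p = 0.116). Sp1, a transcription factor with sites in Grin promoters, had -0.43 (adjusted p = 0.0556).

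The remaining genes were named for having the smallest p of their list in any of the 3 comparisons, and their values are again for injured saline against sham mice. Among scaffolds they were Actn2 at -0.91 (adjusted p = 0.0780 in edgeR), Lin7b at 0.31 (0.0903) and Homer2 at -0.30 (0.103). Among kinases and anchors they were Csnk2b, a subunit of casein kinase 2, at 0.28 (adjusted p = 0.0684), Camk2d at -0.32 (0.109) and Akap9 at -0.51 (0.119). Nos1, the neuronal nitric oxide synthase, had -0.72 (adjusted p = 0.159), with 76.5 ± 13.3 CPM in sham, 46.3 ± 4.30 in injured saline and 72.0 ± 20.2 in R-HNK mice. Calm2 and Rasgrp1 had 0.23 each (adjusted p = 0.185 and 0.219). Among proteins that bind the receptor, Ephb2 had 0.46 (adjusted p = 0.108) and Lrrc7 -0.27 (0.0837). Tbr1, a cortical transcription factor that activates Grin2b, had 0.35 (adjusted p = 0.137), and Rest, a repressor of neuronal genes, -0.50 (0.231). Slc38a2, a glutamine transporter gene, had 0.16 (adjusted p = 0.331). It was named for R-HNK against injured saline mice, where it had -0.26 (adjusted p = 0.464 in edgeR).

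The genes whose log2 CPM was most like each member's over the 9 libraries are given as a description, by Pearson's r among 13330 genes (13331 for Grin3b). The 9 points share group labels and striatal marker level. Grin1 was most like Lrrc49 (0.973) and Fam189b (0.964), and Grin2a most like Sbno1 (0.990), Emb (0.980) and Prss23 (0.976). Grin2b was most like Setbp1 (0.945), Ppp1r12b (0.941) and the calcium channel gene Cacna1c (0.928). Grin2c was most like Ubn2 (0.939), Col27a1 (0.926) and Etv4 (0.918), and Grin2d most like Col16a1 (0.974), Arhgef1 (0.966) and Pcgf2 (0.962). Grin3a was most like Ncapd3 (0.972), the AMPA receptor auxiliary gene Shisa6 (0.969) and Pth2r (0.968). Grin3b was most like Hadhb (0.932), Itprid2 (0.922) and Rnf213 (0.915), but its values rest on only 5 to 45 counts per library. Within the family the values ran from -0.83 between Grin2a and Grin3a to 0.85 between Grin1 and Grin2a.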

How the data were processed

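RNA of prelimbic cortex from 9 mice was sequenced on a NovaSeq instrument, per the labels' protocols. The deposited table holds expected counts per gene, treated as such because its name points to StringTie, while the submitters' processing notes name HISAT2 2.0.5, featureCounts 1.5.0-p3 and mm10. All values were already whole, so rounding changed none. The sources used here do not state strandedness. Groups came from sample titles. Each group had 3 mice, per the labels, so p-values measure the spread between mice.

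Genes passing filterByExpr (minimum count 10) were scaled by TMM and fitted over all 3 groups with edgeR 4.0.16 (R 4.3.3) by quasi-likelihood, with Benjamini-Hochberg adjustment over 21765 genes. The fit was tested on simulated counts, whose changes were all larger than those of Grin2b, Grin2c and Grin3a, so that test does not cover differences of their size. Alternatives were other scalings, no filter, DESeq2 1.42.0, limma 3.58.1 (voom with quality weights), a replicate block, a fit of only the groups compared, and each library left out in turn. The ratio was tested by exact permutation. Replicate pairs differed beyond sampling noise. All 7 members were named, with listed pathway genes that passed or had the smallest p (up to 3 more per list) and the 3 genes most like each member. Members and lists were chosen with earlier results of these data known. Sequences and loci are from GENCODE M21 (GRCm38). Some genes and sequences that these rules pick are not reported here.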

Additional observations from a re-analysis of the deposited data

How the results depend on the processing

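Grin2b, Grin2c and Grin3a kept a lower level in injured saline than in sham mice in all 19 settings tried, and the ratio of Grin2a to Grin2b kept its sign in all 12. For these genes and the ratio the sham and injured saline libraries did not overlap. Fits that left out 1 library were therefore all but bound to keep the sign, and a replicate block could not change the ratio difference. The number of members that passed for injured saline against sham mice was 1 with DESeq2 and 1 with limma-voom, Grin2b each time, and 0 in the other settings. Genes passing in that comparison numbered 233, against 370 with no filter, 1185 with DESeq2, 1135 with limma-voom and 60 to 1170 with 1 library left out (lowest without injured saline replicate 3, highest without sham replicate 1). For R-HNK against injured saline mice they numbered 26, against 140 with DESeq2, 49 with limma-voom, 53 with the compared groups alone and 7 to 56 with 1 library left out (the same libraries). For R-HNK against sham mice they numbered 1, against 10 with DESeq2, 0 with limma-voom and 1 to 11 with 1 library left out (highest without sham replicate 1). The causes were not tested.

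Replicate numbers did not pair the samples: correlations of deviations between same-numbered libraries ran from -0.0951 to 0.0813. With a replicate block 162, 16 and 2 genes passed in the 3 comparisons and no member did. The ratio difference for injured saline against sham mice stayed at 0.48, which such a block cannot change. Flipping the signs of the 3 same-numbered differences gave an exact p = 0.25, the smallest p that this test can give. With the block Tiam1 had adjusted p = 0.0533 in edgeR.

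The following settings were chosen after seeing the data. The striatal score as a covariate left 88 genes for injured saline against sham mice, and turned Grin1 to -0.11, Grin2a to -0.054 and Grin3b to 0.74. Dropping the 4 striatally raised libraries left 86 genes there and 25 for R-HNK against sham mice, and turned Grin1 to -0.10 and Grin3b to 0.37. It leaves 1 sham and 1 R-HNK library, assumed to vary like the injured saline ones. Requiring a mean log2 CPM above 0 left 0 genes for R-HNK against sham mice and gave no value for Grin3b. For R-HNK against injured saline mice, Grin1 turned to 0.042 with the covariate, and without the 4 libraries Grin1 to 0.026, Grin2a to 0.060 and Grin3a to -0.0080. For R-HNK against sham mice, Grin1 turned to 0.00073 and Grin2a to -0.0071 with limma-voom, Grin2a to -0.072 with the covariate and Grin3a to -0.18 without the 4 libraries.

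With 1 library left out, signs also turned for Grin2d in injured saline against sham mice (-0.24 to 0.017) and in R-HNK against injured saline mice (-0.045 to 0.18), and for Grin3b in the latter (-1.26 to 0.35). For R-HNK against sham mice they turned for Grin1 (-0.069 to 0.089), Grin2a (-0.13 to 0.12), Grin2d (-0.15 to 0.091) and Grin3a (-0.072 to 0.15). Grin3b, at 5 to 45 counts per library, is limited by depth.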
